A study of Oryctolagus cuniculus with 9 samples.

Results

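MTOR, TSC2, LAMTOR1, UVRAG and EPG5 are 5 genes of mTOR signalling and autophagy, taken by gene symbol from the 14870 genes listed for rabbit knee cartilage. They were chosen because their measured values in defects differed from those in healthy cartilage, so their levels against healthy cartilage are given as a description and without a test. RNA sequencing was performed on 9 libraries: 3 from healthy cartilage, 3 from untreated chondral defects and 3 from defects treated with CLCS, a scaffold of chondroitin sulfate and collagen type I. The tissue came from New Zealand white rabbits that were 4 to 5 months old at surgery, and it was taken 12 weeks after surgery. The defects lay in the trochlea, the groove for the kneecap, whereas the scheme of the study takes healthy tissue from the condyle, so injury and site cannot be told apart in a comparison with healthy cartilage. The scheme of the study gives 3 rabbits, with the right trochlea treated and the left untreated, but neither the labels nor the methods state which libraries come from the same animal.

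mTOR is a protein kinase that promotes growth and protein synthesis when amino acids and growth factors are plentiful, and in its complex 1 form (mTORC1) it holds autophagy back. Growth factor signals reach it through the TSC complex, amino acid signals through the Rag GTPases that the Ragulator complex anchors on the lysosome. Autophagy encloses cell material in a double membrane, the autophagosome, which fuses with lysosomes, and chondrocytes are known to depend on it for survival in tissue without blood vessels.

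Values are normalized reads, the deposited unit, in which the reads of a gene are divided by the size factor of its library. They are not corrected for gene length, so levels are compared between libraries and not between genes. The deposited counts summed to between 724986 and 1226408 reads per library. This is a small part of the aligned read pairs that the study reports, and the reason was not examined. In these counts MTOR, LAMTOR1, UVRAG and EPG5 had at most 150 reads per library, whereas TSC2 had 1119 to 5554. A single gene without a symbol took 1.49% of these reads in untreated replicate 3 and 49.4% in CLCS replicate 3. Its share lay between 17.8% and 31.4% in all other libraries. The cartilage label was checked with 10 listed markers: their summed level was 8183 to 10832 normalized reads in healthy libraries, 754 to 9995 in untreated libraries and 10010 to 28090 in CLCS libraries. COL2A1, the type II collagen gene, made up most of this sum, with means of 7817 in healthy, 4445 in untreated and 14529 normalized reads in CLCS libraries. COL9A1 and COL9A2 had the same order of means, with 61.2, 57.0 and 118 and with 299, 122 and 390. Some other markers had their highest mean in healthy libraries. ACAN, the aggrecan gene, had means of 469, 218 and 385. SOX9, the transcription factor of chondrocytes, had 26.1, 4.12 and 7.74. COL11A1, COL11A2 and HAPLN1 were also highest in healthy libraries. All 7 tested markers had a higher estimate in CLCS than in untreated samples, with 0 called, as was the case for all tested genes (0% called). Against healthy samples all 7 had a lower estimate in untreated samples, and in CLCS samples 4 were higher and 3 lower. In these comparisons 0 of the 7 were called, beside 2.55% and 3.16% of all tested genes. Untreated replicate 3 was lowest and CLCS replicate 3 highest in the sum, and MATN1 had no read in any defect library. In bulk tissue, fewer cells of a type and less RNA per cell cannot be told apart.

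MTOR (ENSOCUG00000013053), the kinase itself, had 46.2, 92.4 and 28.0 normalized reads in healthy replicates 1, 2 and 3 (55.5 ± 33.2, SD, n = 3). In untreated defects the values were 25.2, 21.0 and 18.1 (21.4 ± 3.56), and in CLCS treated defects 15.5, 35.4 and 22.4 (24.4 ± 10.1). All 3 untreated libraries lay below the lowest healthy library, by a narrow margin for replicate 1. The CLCS libraries overlapped both other groups, since CLCS replicate 2 was higher than healthy replicate 3. The log2 fold change on the scale of the value plus 1 was -1.18 (SE 0.45) in untreated and -1.06 (SE 0.49) in CLCS samples. In order of its mean, MTOR was highest in healthy cartilage, followed by CLCS and untreated samples, which did not differ beyond their spread.

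TSC2 (ENSOCUG00000012834) encodes tuberin, the part of the TSC complex that switches off RHEB, the small GTPase that activates mTORC1. It had 2797, 5637 and 3361 normalized reads in the healthy libraries (3931 ± 1504). Untreated libraries had 1721, 1119 and 1798 (1546 ± 372), and CLCS libraries had 2239, 1819 and 5111 (3057 ± 1792). Every untreated library was thus below every healthy and every CLCS library, by a narrow margin between untreated replicate 3 and CLCS replicate 2. CLCS replicates 1 and 2 lay between the untreated and the healthy ranges, and replicate 3 lay inside the healthy range. Against healthy samples the log2 fold change was -1.31 (SE 0.38) in untreated and -0.45 (SE 0.47) in CLCS samples. Healthy cartilage had the highest mean, followed by CLCS, whose range overlapped it, and by untreated samples. CLCS replicate 3, the library with the highest TSC2 value of its group, also had the highest cartilage marker sum, most of it COL2A1. In untreated replicate 3 the marker sum was the lowest of all libraries. TSC2 was the highest of its group there by a narrow margin, with 1798 beside 1721 in untreated replicate 1. The part of the cartilage content of a sample in the TSC2 level was not tested.

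LAMTOR1 (ENSOCUG00000000164) encodes the Ragulator subunit that tethers the complex, and with it the Rag GTPases, to the lysosomal membrane. Each healthy library had 4 reads of it, which are 3.77, 4.06 and 3.61 normalized reads (3.81 ± 0.226). Untreated libraries had 22.8, 30.0 and 9.97 normalized reads (20.9 ± 10.2) from 29, 30 and 11 reads. CLCS libraries had 19.6, 15.7 and 4.98 (13.5 ± 7.59) from 19, 16 and 4 reads. The untreated libraries were all above the healthy ones. CLCS replicate 3 stood above them only after division by the size factor, because its number of reads equalled theirs. The log2 fold change was 2.06 (SE 0.42) in untreated samples. In CLCS samples the difference of the log2 means was 1.40, without a fit, since LAMTOR1 had too few reads there to pass the filter on low counts. Untreated samples had the highest mean, then CLCS samples, which overlapped them, and healthy cartilage the lowest.

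UVRAG (ENSOCUG00000017876) encodes a subunit of the Beclin 1 and class III PI3 kinase complex that acts in autophagosome maturation and endosome traffic. In healthy libraries it had 11.3, 12.2 and 28.9 normalized reads (17.5 ± 9.92) from 12, 12 and 32 reads. Untreated libraries had 0, 0 and 0.907 normalized reads, a single read in replicate 3, and CLCS libraries had 0 reads in all 3. The gene was thus seen with at least 12 reads in each healthy library and with at most 1 read in any defect library. The 56 healthy reads against 1 untreated read gave a level 59.9 times higher in healthy cartilage after division by the size factors, with an exact 95% Clopper-Pearson interval of 10.3 to 2407 that covers counting error only and is no test of the groups. Without healthy replicate 3, the library with the most reads, the ratio was 39.5 (6.45 to 1626). In CLCS samples UVRAG was at least 4.68-fold lower than in healthy cartilage, a limit set by 3 reads in a library, and the limit moved to 3.14-fold without healthy replicate 3. With 1 and 0 reads, the defect groups could not be compared with each other.

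EPG5 (ENSOCUG00000003950) encodes a tethering factor that lets autophagosomes fuse with late endosomes and lysosomes. Healthy libraries had 4.71, 9.13 and 6.32 normalized reads (6.72 ± 2.24) from 5, 9 and 7 reads. Untreated libraries had 78.0, 150.0 and 19.9 (82.7 ± 65.2), and CLCS libraries 30.0, 46.2 and 19.9 (32.0 ± 13.3). Every defect library exceeded every healthy one, and the untreated libraries differed among themselves by 7.52 times. The means amount to a 12.3-fold higher level in untreated and a 4.77-fold higher level in CLCS samples. On the log2 scale the fold change was 3.07 (SE 0.69) in untreated and 2.06 (SE 0.39) in CLCS samples. Without replicate 3 of both defect groups, a setting added once the values were known, the log2 differences were 3.86 and 2.35. Without untreated replicate 2, the library with the highest value, the untreated difference was 2.44. By mean, untreated samples stood first and CLCS samples second with overlapping values, and healthy cartilage last.

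**Figure D1:**
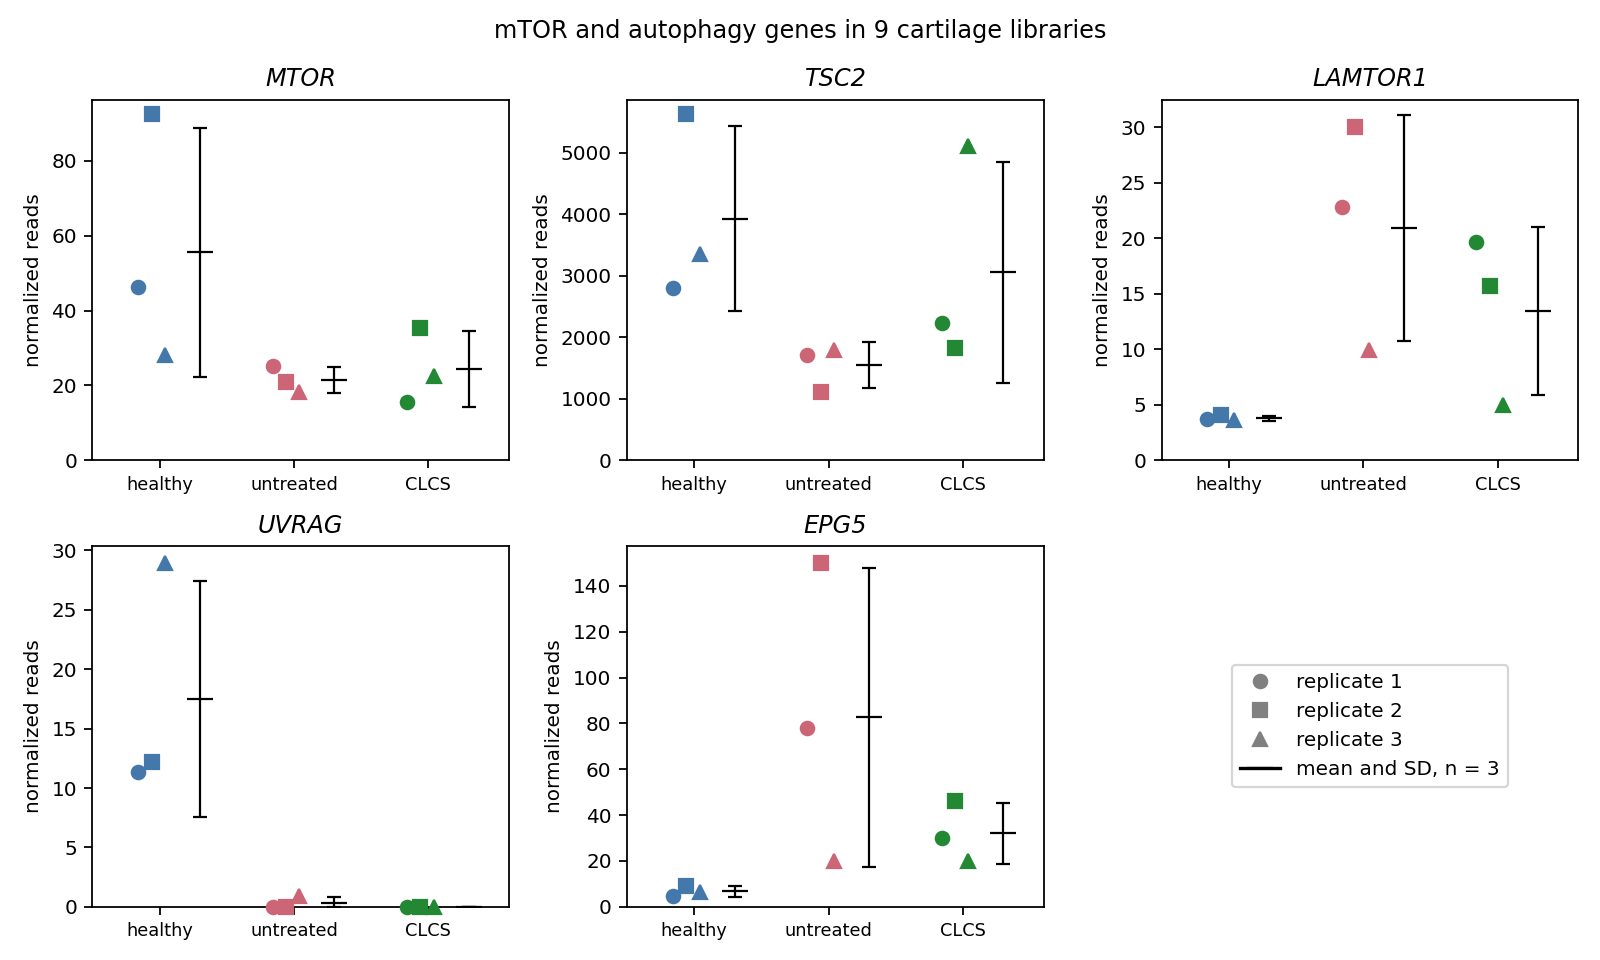
Normalized reads (vertical axes, linear, each starting at 0) of the 5 genes in the healthy, untreated and CLCS libraries; each symbol is 1 library and its shape gives the replicate number, and the bar shows the mean and SD of 3 libraries, with the lower end stopped at 0. MTOR and TSC2 have their highest means in healthy libraries, UVRAG has 11.3 to 28.9 in healthy and at most 0.907 in defect libraries, and LAMTOR1 and EPG5 are higher in defects, with replicate 3 the lowest of both defect groups for LAMTOR1.

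The untreated and healthy groups did not overlap for 5 of the 5 genes, where 22.0% of all 3496 tested genes did not overlap. For CLCS against healthy samples the groups did not overlap for LAMTOR1, UVRAG and EPG5, against 24.2% of all 3294 tested genes, LAMTOR1 not being among those tested. Both comparisons share the healthy libraries, and the genes were picked on these values, so nothing is read from these counts. The filter on low counts was passed by 5 of the 5 genes in untreated against healthy samples, by all but LAMTOR1 in CLCS against healthy samples and by all but UVRAG in CLCS against untreated samples.

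CLCS treated and untreated defects were compared directly to ask whether the scaffold changed the genes relative to an untreated defect. The genes were chosen on comparisons of the same libraries with healthy cartilage, so this contrast is not wholly independent of the choice. The study reports MTOR and TSC2 as altered in untreated samples only. In the limma fit across all 3275 tested genes, none of MTOR, TSC2, LAMTOR1 and EPG5 was called at an adjusted p under 0.05, as was the case for every other gene (0% called, 2.90% with an unadjusted p under 0.05). edgeR and DESeq2 on the recovered reads also called 0 genes. TSC2 had the only groups that did not overlap, CLCS being higher, whereas 8.34% of all tested genes did not overlap, 3.82% with CLCS higher. Its log2 fold change of CLCS against untreated samples was 0.86 (SE 0.44, 95% interval -0.16 to 1.88, limma adjusted p = 0.996). For MTOR the log2 fold change was 0.12 (SE 0.35, interval -0.70 to 0.93), which leaves room for a level in CLCS samples moderately below or above that of untreated samples. LAMTOR1 had -0.66 (SE 0.57, interval -2.0 to 0.68), and EPG5 had -1.01 (SE 0.70, interval -2.66 to 0.64). The limma adjusted p was 0.996 for each of these 3 genes as well. Leaving out untreated replicate 2 or 3 moved the EPG5 value to -0.38 or -1.80. Within equal replicate numbers, which are not known to mark the same rabbit, TSC2 was higher in CLCS in 3 of 3 pairs. Any pairing would give this for TSC2, since its groups did not overlap. LAMTOR1 and EPG5 were lower in 3 of 3, the EPG5 values of replicate 3 being equal to 3 digits, and MTOR was higher in 2 of 3. With the replicate number as a block in limma, the interval excluded 0 for TSC2 (0.09 to 1.64) and for EPG5 (-1.99 to -0.03), and for LAMTOR1 it was -1.33 to 0.01. The limma adjusted p with the block was 0.884 for each of these, so no call was made either way. The intervals without the block are wide, so the test does not show that the defect groups were alike.

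**Figure D2:**
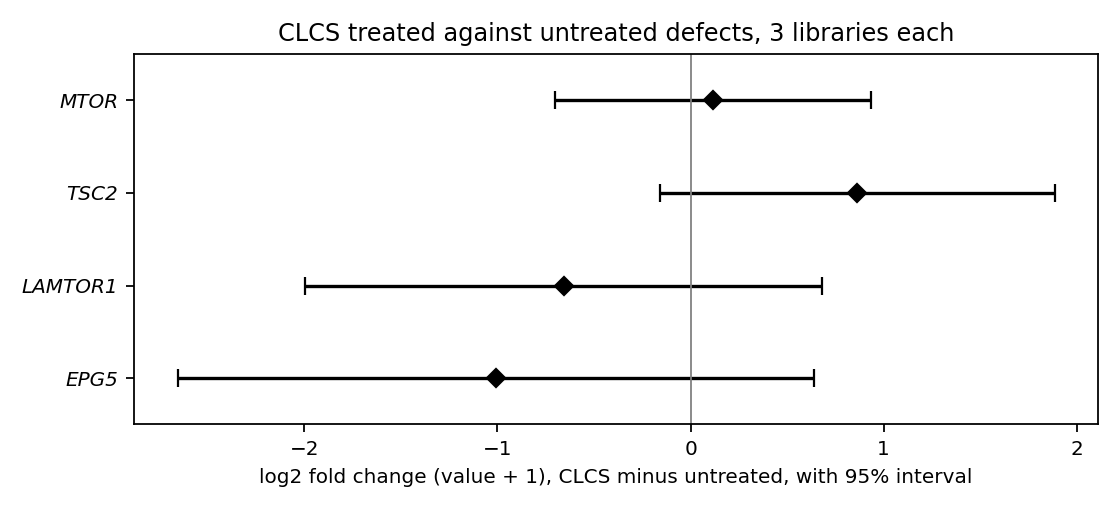
Log2 fold change of CLCS against untreated samples (horizontal axis, on the scale of the normalized value plus 1; values above 0 are higher in CLCS) for the 4 genes with enough reads, as the limma estimate (diamond) and its 95% interval (line), with 3 libraries per group. Every interval of this fit, which has no replicate block, includes 0; that of TSC2 runs from -0.16 to 1.88 and that of EPG5 from -2.66 to 0.64.

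Genes that lie on top of or beside another gene can share its reads, and the strand setting of the count is not given in the sources used here. ND6, which is transcribed from the opposite strand to the other 12 protein genes of mitochondria, held 86.0% to 94.4% of the reads of all 13 in each library. Positions came from RefSeq for mOryCun1.1, a different assembly from the oryCun2.0 used for alignment, and served only to find neighbours. Of the 5 genes, 2 overlap another protein-coding gene there, MTOR by 5815 bases and TSC2 by 4 bases only. Among the 10291 listed genes that could be matched, 21.9% overlap another. The part of overlapping genes in the levels below was not tested. Whether the reads counted for the 5 genes came from their own strand was not tested either. Each level in this report is therefore that of the reads counted under the name of the gene.

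ANGPTL7, which encodes a secreted angiopoietin-like protein, lies inside MTOR. It had 503, 59.9 and 27.1 normalized reads in healthy libraries, 12.6, 14.0 and 12.7 in untreated libraries and 16.5, 17.7 and 11.2 in CLCS libraries. Like MTOR, ANGPTL7 was lower in every untreated library than in any healthy one, and it was so in every CLCS library too. Among the healthy libraries, ANGPTL7 was highest in replicate 1 and MTOR in replicate 2. The part of ANGPTL7 reads in the MTOR level was not tested. Over the 9 libraries the Pearson correlation of the log2 values of both genes was 0.63, which placed ANGPTL7 at rank 298 of 3811 genes in likeness to MTOR. The log2 fold change of ANGPTL7 was -2.76 (SE 0.96, limma adjusted p = 0.196) in untreated samples, and in CLCS samples it was -2.58 (SE 0.95, limma adjusted p = 0.218). DESeq2 on the recovered reads called it in both, with adjusted p of 0.000751 and 0.000928, and edgeR did not, with 0.103 and 0.0928. The study, which used DESeq2, lists ANGPTL7 as lower in both comparisons. EXOSC10, an RNA exosome subunit and the next gene after MTOR, had 24.5, 68.0 and 23.5 normalized reads in healthy libraries, 18.1, 15.0 and 49.0 in untreated libraries and 31.0, 13.8 and 32.4 in CLCS libraries. Its groups overlapped in all 3 comparisons.

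PKD1, the polycystin 1 gene, overlaps TSC2 at its end, and NTHL1, a DNA repair glycosylase gene, lies within 1000 bases of it. Both were not analysed here, so the TSC2 reads could not be set beside theirs. LRRC51, within 1000 bases of LAMTOR1, was not analysed here either. NUMA1, the nearest listed gene before LAMTOR1 and a mitotic spindle protein gene, had 112, 166 and 167 normalized reads in healthy libraries, 97.7, 99.0 and 109 in untreated libraries and 99.2, 114 and 190 in CLCS libraries. The untreated libraries lay below the healthy ones, and the CLCS libraries overlapped them. UVRAG overlaps a long noncoding RNA, pseudogenes and a small nucleolar RNA, none of them analysed here. WNT11, a secreted Wnt ligand gene and the next one after UVRAG, had 1, 3 and 5 reads in healthy, 1, 0 and 0 in untreated and 0 in each of the CLCS libraries.

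EPG5 overlaps no gene in this annotation, and SIGLEC15, an osteoclast receptor gene, follows it directly. SIGLEC15 had 0 reads in each healthy library, 3, 1 and 0 in untreated and 1, 1 and 0 in CLCS libraries, far fewer than EPG5. The gene after it, SLC14A1, encodes a urea transporter and was singled out after its values were seen. SLC14A1 had 1, 12 and 3 reads in healthy libraries, 52, 92 and 18 in untreated libraries and 38, 37 and 4 in CLCS libraries. It shared with EPG5 the highest value in untreated replicate 2 and low values in replicate 3 of both defect groups, and with a correlation of 0.91 over 9 libraries it ranked 8 of 3811 genes in likeness to EPG5. The log2 fold change of SLC14A1 was 3.16 (SE 0.83, limma adjusted p = 0.105) in untreated samples, and in CLCS samples it was 2.19 (SE 0.91, limma adjusted p = 0.275). DESeq2 on the recovered reads gave adjusted p of 0.00500 and 0.0907, and edgeR 0.0992 and 0.203. The study lists SLC14A1 as higher in both comparisons.

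**Figure D3:**
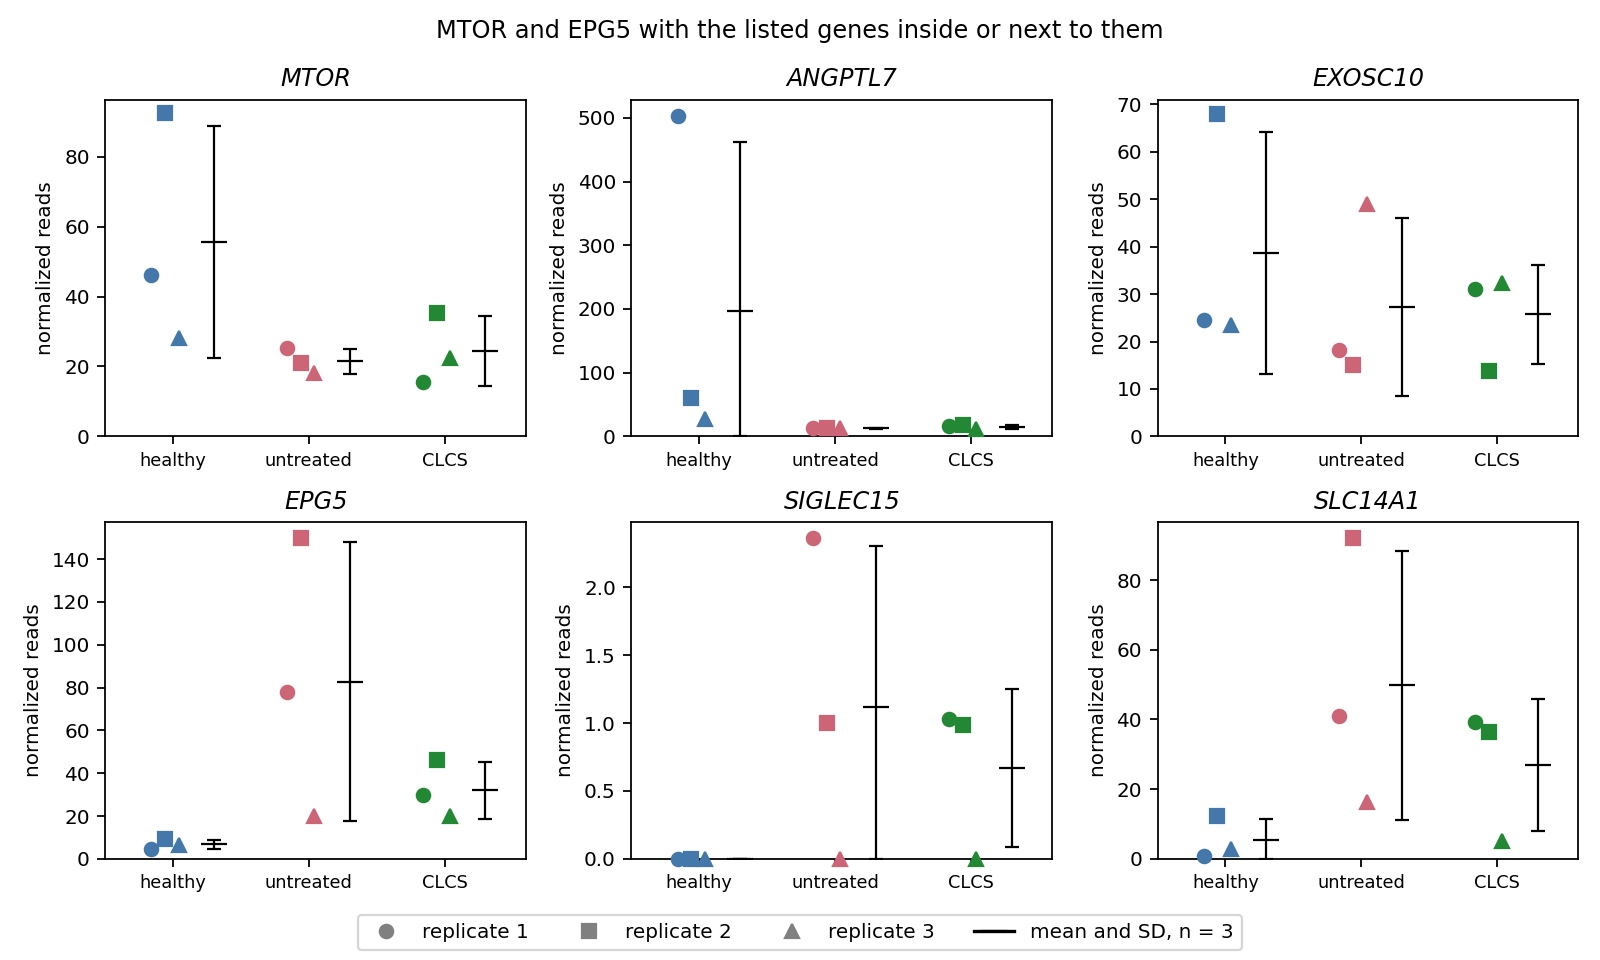
Normalized reads (vertical axes, linear, each starting at 0) of MTOR with ANGPTL7, which lies inside it, and the next gene EXOSC10 (upper row), and of EPG5 with the following genes SIGLEC15 and SLC14A1 (lower row); each symbol is 1 library, and the bar gives the mean and SD of 3 libraries, with the lower end stopped at 0. ANGPTL7 is highest in healthy replicate 1 and MTOR in healthy replicate 2. EPG5 and SLC14A1 are both highest in untreated replicate 2.

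The defect libraries, in which EPG5 and LAMTOR1 were higher, also held more reads of osteoclast and bone markers. The summed level of the 8 listed osteoclast markers was 6.32 to 34.9 normalized reads in healthy libraries, 68.0 to 167 in untreated libraries and 46.1 to 172 in CLCS libraries, and DCSTAMP and SIGLEC15 had no read in healthy libraries. For the 9 listed bone markers the ranges were 308 to 921, 986 to 2985 and 1864 to 2430. Within both defect groups replicate 3 was the lowest for either sum, as it was for LAMTOR1 and EPG5. Of the osteoclast list 2 genes were tested, and limma called 0 in either comparison with healthy cartilage. Of 5 tested bone genes 0 were called in untreated samples and 1, as higher, in CLCS samples. At an unadjusted p under 0.05 in limma, 2 osteoclast genes were higher in each comparison. The same held for 3 bone genes in untreated and 4 in CLCS samples, beside 16.6% and 17.5% of all tested genes. Tendon and fibroblast markers, 7 listed, summed to 468 to 680 in healthy libraries, 944 to 3877 in untreated libraries and 1741 to 3319 in CLCS libraries. COL1A1 and COL3A1 made up most of that sum, while THBS4 had means of 50.2 in healthy, 10.3 in untreated and 29.0 in CLCS libraries, and FMOD had 70.4, 19.9 and 48.8. Of 5 tested genes of the list, 2 were called higher and 0 lower by limma in untreated against healthy samples. Of all tested genes 2.55% were called. At an unadjusted p under 0.05 in limma, 2 were higher and 2 lower, beside 16.6% of all tested genes. In CLCS against healthy samples 2 of 5 were called higher and 0 lower, beside 3.16% of all tested genes called. Macrophage markers, 9 listed, had 27.1 to 36.7, 40.0 to 81.6 and 31.1 to 51.7, and those of endothelium and of erythroid and marrow cells stayed at or below 14.5 in every library. Skeletal muscle markers, 7 listed, had 24.5 to 52.4 in healthy and 15.7 to 27.4 in defect libraries. The part of these cell types in the levels of the 5 genes was not tested.

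For each of the 5 genes, the genes most like it were ranked by the Pearson correlation of log2 values over the 9 libraries, among 3811 others. The 9 points share their groups, their depth and the healthy libraries, so these correlations are descriptions and carry no p. MTOR was most like BHLHE40 (0.92), a transcription factor gene, ENSOCUG00000024657 (0.91) and ESF1 (0.91). TSC2 was most like SPRYD3 (0.94), TMEM101 (0.93) and LRRC36 (0.93). SPRYD3 had 7331 ± 2491 normalized reads in healthy samples, 3399 ± 230 in untreated samples and 5902 ± 3147 in CLCS samples, which is the same order of groups as TSC2.
UVRAG was most like TMEM40 (0.98), FAM151A (0.95) and ARL14EP (0.95), genes that kept reads in defects: TMEM40 had 89.2 ± 6.18 normalized reads in healthy samples, 50.9 ± 2.47 in untreated samples and 49.0 ± 3.05 in CLCS samples. LAMTOR1 was most like ENSOCUG00000000484 (0.95), SEMA6D (0.94) and SLC24A5 (0.94). SEMA6D, a semaphorin gene, also headed the list for EPG5 (0.96), followed by LAMTOR1 (0.94) and CNOT1 (0.93). SEMA6D had 2.28 ± 1.62 normalized reads in healthy samples, 18.2 ± 9.75 in untreated samples and 9.37 ± 3.99 in CLCS samples. Among the 5 genes, the closest pair was LAMTOR1 and EPG5. TSC2 ran opposite to LAMTOR1 (-0.84) and to EPG5 (-0.73), as did UVRAG to EPG5 (-0.83), and MTOR and TSC2 were related at 0.54.

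To place the 5 genes in their pathways, 196 further genes were arranged by role in 11 lists, of which 151 are in the tables. Few of those had enough reads to be tested: 40 in either comparison with healthy cartilage and 39 between the defect groups. In untreated against healthy samples 1 of the 40 was called, AMBRA1, which was higher, and 0 were called lower. Of all tested genes 2.55% were called, 1.34% as higher and 1.20% as lower. An unadjusted p under 0.05 was found for 6 of the 40, and for 16.6% of all tested genes. The median log2 fold change of the 40 was 0.05, beside -0.02 for all tested genes. In CLCS against healthy samples 0 of 40 were called by limma, against 3.16% of all genes. An unadjusted p under 0.05 was again found for 6 of them, and for 17.5% of all tested genes. The median was -0.12 beside -0.08. edgeR also called 0 there, and DESeq2 called AMBRA1 and NPRL3 as higher and TECPR1 as lower. In CLCS against untreated samples limma, edgeR and DESeq2 called 0 of 39, and 1 had an unadjusted p under 0.05 in limma.

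AMBRA1 (ENSOCUG00000016117) encodes a Beclin 1 partner that helps to start autophagy, and it stands in the same list as UVRAG. It had 6.60, 13.2 and 5.42 normalized reads in healthy libraries, 26.0, 47.0 and 39.0 in untreated libraries and 33.1, 34.4 and 18.7 in CLCS libraries. Every defect library was above every healthy library, the opposite order to UVRAG. The log2 fold change was 2.08 (SE 0.40, limma adjusted p = 0.0490) in untreated samples and 1.70 (SE 0.40, limma adjusted p = 0.0751) in CLCS samples. The call in untreated samples was lost with edgeR and whenever any 1 library was left out. DESeq2 on the recovered reads called AMBRA1 in both, with adjusted p of 0.00303 and 0.0247. In CLCS samples a block for the replicate number gave a limma adjusted p of 0.0420. The study lists AMBRA1 as higher in both comparisons. HARBI1 overlaps AMBRA1 in the RefSeq annotation and was not analysed here.

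Around MTOR, 4 genes of its complexes and their assembly were tested, and 0 passed. MLST8, a subunit shared by both mTOR complexes, had 60.6 ± 40.8 normalized reads in healthy samples, 54.4 ± 25.6 in untreated samples and 72.9 ± 38.3 in CLCS samples. TELO2, needed to assemble the kinase, had 29.3 ± 21.3, 11.3 ± 4.97 and 15.5 ± 10.3, the same order of means as MTOR, with overlapping groups. TTI2, which acts with TELO2, had 329 ± 234, 386 ± 71.5 and 366 ± 26.7. Beside TSC2, the only tested gene of its list was DDIT4, a stress-induced inhibitor of mTORC1 that acts through the TSC complex. DDIT4 had 31.7 ± 21.7 normalized reads in healthy samples, 9.14 ± 6.25 in untreated samples and 13.7 ± 5.43 in CLCS samples, and it was not called either.

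Of the amino acid sensing genes around LAMTOR1, 6 were tested in each comparison with healthy cartilage and 0 were called by limma. NPRL3, a subunit of the GATOR1 complex that restrains the Rag GTPases, had 205 ± 16.1 normalized reads in healthy samples, 327 ± 88.7 in untreated samples and 355 ± 19.4 in CLCS samples. NPRL2, its partner in GATOR1, had 51.2 ± 8.16, 37.6 ± 3.81 and 35.5 ± 4.97, so that the means of both partners differed in opposite directions. Among growth factor inputs, 2 genes were tested and 0 called. IRS1, the insulin receptor substrate, had 3 to 21 reads per healthy library, 11 to 23 per untreated library and 10 to 31 per CLCS library. Of the targets of mTORC1, 4 were tested and 0 called. EIF4E, the cap-binding translation factor, had 261 ± 12.7, 238 ± 29.1 and 228 ± 16.8, and EIF4B, which aids the helicase of the same machinery, had 71.4 ± 6.68, 44.1 ± 19.3 and 46.5 ± 7.77.

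On the autophagy side, none of the 5 genes of the ULK initiation complex had enough reads to be tested. ULK1, the kinase that mTORC1 inhibits, had 4 to 14 reads in healthy libraries, 1 to 4 in untreated libraries and 1 to 6 in CLCS libraries. In the list that UVRAG belongs to, 4 genes were tested against healthy cartilage, of which AMBRA1 was the one called in untreated samples. ATG14, which takes the place of UVRAG in the autophagy form of the Beclin 1 complex, had 119 ± 5.52 normalized reads in healthy samples, 103 ± 15.6 in untreated samples and 110 ± 27.1 in CLCS samples. VMP1, a membrane protein of early autophagosomes, had 2 to 3 reads in healthy libraries, too few for a test, with 10 to 26 in untreated and 9 to 20 in CLCS libraries. For autophagosome growth, 5 genes were tested in untreated samples and 6 in CLCS samples, each against healthy cartilage, and for the cargo receptors 4 in each, with 0 called. WIPI1, which binds the lipid made by the class III PI3 kinase, had 173 ± 37.1, 184 ± 36.7 and 174 ± 8.92 normalized reads. SQSTM1, the p62 cargo receptor, had 33.5 ± 10.6, 51.5 ± 17.8 and 42.6 ± 4.51.

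Beside EPG5, 3 genes of autophagosome to lysosome fusion were tested in each comparison with healthy cartilage, and 0 were called by limma. VPS16, a core subunit of the HOPS tethering complex, had 94.5 ± 2.73 normalized reads in healthy samples, 94.0 ± 6.05 in untreated samples and 86.1 ± 14.5 in CLCS samples. TECPR1, another tether, had 26.5 ± 9.80, 10.9 ± 11.3 and 7.10 ± 3.56. Of the lysosome genes, 7 were tested in untreated samples and 6 in CLCS samples, each against healthy cartilage, and 0 were called. CTSA, a lysosomal carboxypeptidase, had 34.3 ± 42.4, 936 ± 1599 and 175 ± 233, a spread between libraries as large as the means. ATP6V1H, a subunit of the proton pump that acidifies lysosomes, had 14.6 ± 0.687 normalized reads in healthy samples, 17.3 ± 2.39 in untreated samples and 27.8 ± 2.03 in CLCS samples. It was the gene with an unadjusted p under 0.05 in CLCS against untreated samples (log2 fold change 0.66, limma adjusted p = 0.996).

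**Figure D4:**
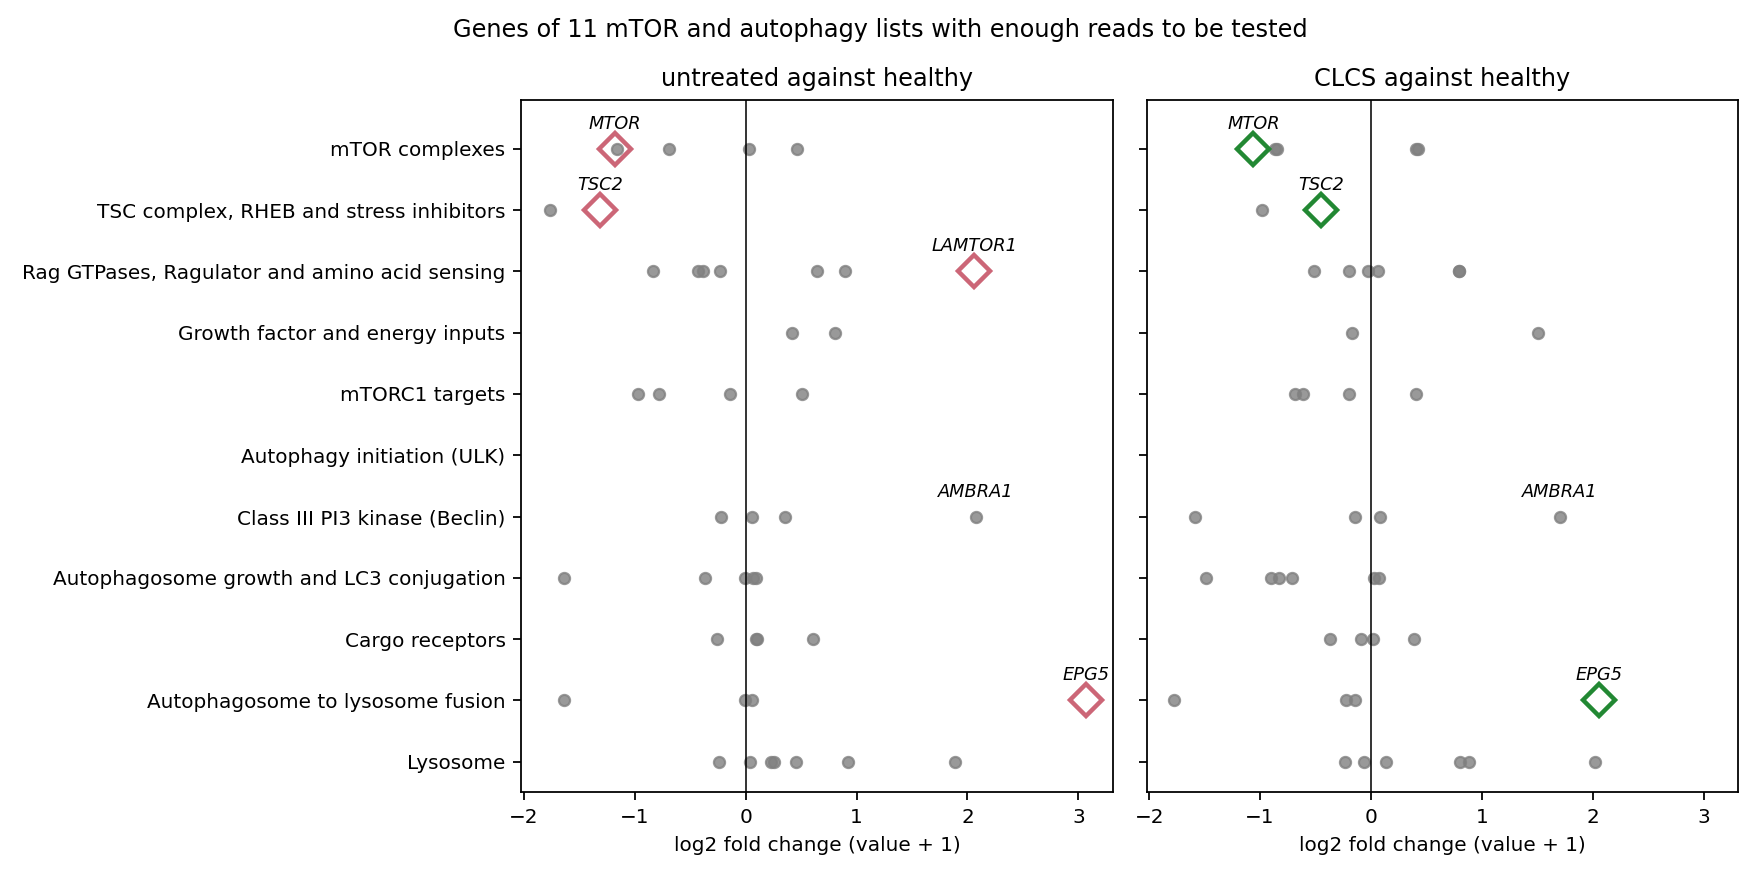
Log2 fold change against healthy cartilage (horizontal axes, on the scale of the normalized value plus 1) of the tested genes of 11 mTOR and autophagy lists, for untreated (left) and CLCS (right) samples; grey points are list genes, open diamonds are MTOR, TSC2, LAMTOR1 and EPG5. UVRAG is left out because it has at most 1 read per defect library, and LAMTOR1 on the right because it did not pass the filter; the 40 grey points on each side have medians of 0.05 and -0.12, and no gene of the ULK list could be tested.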

How the data were processed

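RNA sequencing of 9 rabbit cartilage libraries was analysed, 3 per group, grouped by the sample labels. According to the methods of the study, polyA RNA was prepared with the TruSeq protocol, and TopHat and Bowtie aligned the read pairs to oryCun2.0 before eXpress counted them per gene. The deposited values are a normalized signal: the authors divided the read counts of each library by its DESeq2 size factor. Values were multiples of a step per library, and 100% came out as whole reads within a tolerance of 0.001. Tool versions, the annotation release and the strand setting are not given in the sources used here. The healthy columns, identical in both tables, were used once, and all per-sample columns were read. Columns of fold changes and p-values made by the authors were not used.

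Groups were compared in pairs with limma 3.58.1 (lmFit and eBayes, R 4.3.3) on log2 of the value plus a pseudocount of 1, for genes kept by filterByExpr of edgeR 4.0.16 on the recovered reads, with Benjamini-Hochberg adjustment over all genes tested and calls at an adjusted p under 0.05. The pipeline was tested on simulated data. The alternatives were pseudocounts of 0.5 and 5, no filter, a mean of at least 10, edgeR with TMM, DESeq2 1.42.0, log2 CPM, all 9 libraries in 1 fit, a replicate block and leaving out each library. P-values measure the spread between these libraries.

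The 5 genes and the lists were chosen with earlier results of these data known. The rule for named genes took the 5 genes, genes overlapping or within 1000 bases of them, called list genes and up to 4 list genes of highest mean per list, the 3 genes most correlated with each of the 5 and marker genes. Nearest listed neighbours were added after the values were seen. One list gene that the rule names is not reported here. Gene positions came from the RefSeq annotation of mOryCun1.1. Sequences of the genes were not used here.

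Whether replicate numbers pair the samples was checked with deviations from group means across 3812 genes. Between untreated and healthy libraries of numbers 1, 2 and 3 the correlations were 0.29, 0.13 and -0.04. CLCS libraries correlated with healthy ones at 0.28, 0.14 and 0.19 and with untreated ones at 0.25, 0.33 and 0.30, all above 0.1. Equal numbers thus deviated together in the comparisons with CLCS, but values are those of the fit without a block unless a block is named. Only libraries of equal number were correlated, so the check does not show which libraries share a rabbit.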

Additional observations from a re-analysis of the deposited data

How the results depend on the processing

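Of the 274 values recomputed under an alternative, 242 stayed close to the main value: log2 fold changes against healthy cartilage kept their sign and moved by less than the spread between replicates, whatever their adjusted p, those between the defect groups kept their sign and were not called, and counts stayed within 1.5 times. Untreated against healthy samples, 89 genes called became 20 without a filter, 275 with DESeq2, 173 with all 9 libraries in 1 fit and 2 to 7 when 1 library was left out. For CLCS against healthy samples, 104 became 13 without a filter, 243 with DESeq2 and 0 to 81 when 1 library was left out, 0 being the number without CLCS replicate 1. The 1 pathway list gene called in untreated samples, AMBRA1, became 0 with a pseudocount of 0.5, without a filter, with a mean of at least 10, with edgeR, and in all fits without 1 library (0 to 0). In CLCS samples the 0 list genes became 3 with DESeq2, 1 with the replicate block and 0 to 1 when 1 library was left out. LAMTOR1 moved from 2.06 to 1.47 in untreated samples with a pseudocount of 5, which shrinks low values by construction. MTOR in CLCS against untreated samples had 0.12, and -0.18 to 0.39 when 1 library was left out, the change of sign being that without CLCS replicate 2. The ND6 share was 92.1% over all reads and 86.0% in the lowest library. The causes of the other moves were not tested. The block changed no call of the 4 genes between CLCS and untreated samples, with limma adjusted p of 0.884 for TSC2, LAMTOR1 and EPG5 and 0.961 for MTOR. For untreated and healthy samples, whose correlations at equal numbers ran from -0.04 to 0.29, the block gave 94 calls. UVRAG was given as a ratio and a limit because its fitted fold depends on the pseudocount. With 724986 to 1226408 counted reads per library, 151 listed pathway genes left about 40 that could be tested.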
